A study of Mus musculus with 15 samples.

Results

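Mammary epithelial cells from 8-week-old female mice, grown in culture and labelled as carrying 3 changes, loss of p53, loss of Rb and overexpression of MYC (p53- Rb- Myc+), were compared with unaltered cells of the same kind (WT). The comparison used the 3 arrays labelled p53- Rb- Myc+ and the 3 arrays labelled WT, 6 of the 15 arrays of the series. The other 9 arrays were 3 each of cells without p53 (p53-), without p53 and Rb (p53- Rb-), and without p53 but with MYC (p53- Myc+). They entered the same fit, and are used below to place single genes. According to the labels' protocols, p53 and Rb were deleted with Cre recombinase brought in by an adenovirus, MYC was brought in by a retrovirus, and RNA was taken from dividing cells. The medium was DMEM/F12 with horse serum, EGF, insulin, cholera toxin and hydrocortisone for every group. The labels do not say whether the WT cells received a control virus, when arrays were scanned, or whether replicates of a group came from different animals or cultures. P-values therefore measure how far these arrays spread, part of which may be technical. Changes that go with the viruses and changes that go with the targeted genes cannot be told apart here.

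The retinoblastoma protein Rb holds E2F transcription factors in check and so restrains the genes of S phase. p53 answers DNA damage and other stress by switching on genes that stop the cell cycle or lead to cell death. MYC, with its partner MAX, binds E-box sequences and raises genes of ribosome production, nucleotide synthesis and growth. Mammary epithelium has an inner luminal layer, marked by simple keratins, and an outer basal layer of contractile myoepithelial cells, marked by keratins of stratified epithelia, and both are held together by cadherin, claudin and desmosome proteins.

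Levels are probe set intensities as deposited, and 3 values in a row are those of replicates 1, 2 and 3 of a group. For the genes given array by array below, the 3 values of 1 group all lay above the 3 of the other except for Id1 and Odc1. Fold changes are differences of mean log2(intensity + 16) between p53- Rb- Myc+ and WT arrays, given with their standard error (SE). The 16 added keeps values near background from dominating, and makes the change of a low gene look smaller than it was. A gene rose or fell where the p-value of limma's moderated test, adjusted over all 19938 genes, was under 0.05. Median intensities of the 6 arrays lay between 41.3 and 51, and all 15 arrays had 35556 probe sets. Across genes, arrays of 1 group correlated at r between 0.963 and 0.984 (6 pairs), and WT with p53- Rb- Myc+ arrays at r between 0.792 and 0.816 (9 pairs); genes are not independent replicates.

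The targeted genes were read first. Rb1 read 86.5, 88.1 and 104 in the WT arrays and 20, 18.3 and 17.9 in the p53- Rb- Myc+ arrays. The groups did not overlap, and Rb1 fell (log2 fold change -1.64 ± 0.16, adjusted p = 2.57e-08). Rb1 was also low in 1 group whose Rb label is wild type: it had a mean of 162 ± 17.3 (SD, n = 3) in p53- arrays, 57.4 ± 6.07 (SD, n = 3) in p53- Rb- arrays and 36.4 ± 10.8 (SD, n = 3) in p53- Myc+ arrays. Myc read 940.1, 878 and 846 in the WT arrays and 87.1, 93.5 and 108 in the p53- Rb- Myc+ arrays. Myc thus fell in the arrays labelled as overexpressing it (log2 fold change -3.01 ± 0.17, adjusted p = 1.37e-12), and its mean was 128 ± 29.5 (SD, n = 3) in p53- Myc+ arrays. The sources used here do not say where in the genes the probes lie or which MYC sequence the retrovirus carried, so whether the probe set can read the retroviral transcript was not tested. Because the Myc reading goes against the label, the arrays are named below by their label only. Trp53 had no probe set naming it alone and was not analysed here.

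Against WT, 9047 of 19938 genes passed, 45.4% of all tested. Of these, 5251 rose (26.3%) and 3796 fell (19%), and the median log2 fold change of all genes was 0.13. Large changes were mostly losses: 1563 genes rose and 1833 fell at least 2-fold, 124 rose and 719 fell at least 4-fold, and 2 rose and 132 fell at least 16-fold. The 3 arrays of 1 group all lay above the 3 of the other at 10334 genes (51.8%). With so many genes passing, a list of genes is read below against these shares, by its count in each direction and its median.

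**Figure D1:**
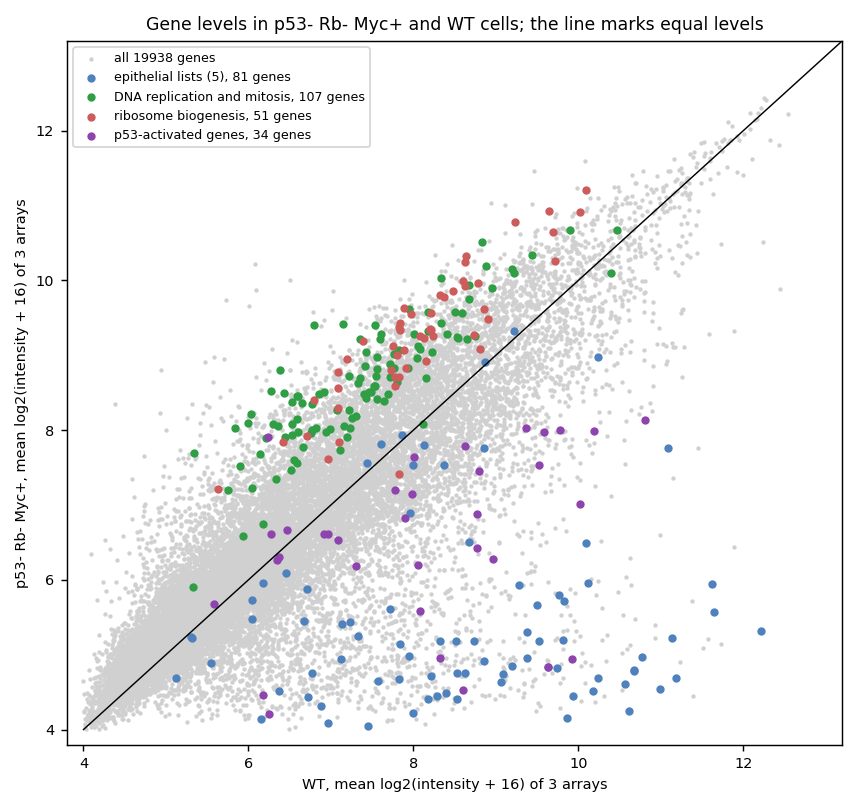
Mean log2(intensity + 16) of each of 19938 genes in the 3 WT arrays (x axis) and the 3 p53- Rb- Myc+ arrays (y axis); the line marks equal levels and coloured points are listed genes. Of the 81 epithelial genes 69 fell, 0 rose and 12 did not pass, and those that fell lie below the line; the 107 genes of DNA replication and mitosis and the 51 of ribosome biogenesis lie mostly above the line.

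The 44 lists of genes fell into lists that rose, lists that fell and mixed ones. DNA replication, mitosis, DNA repair, ribosome biogenesis, nucleotide synthesis and protein folding had from 86.2% to 98.1% of their measured genes rising. Keratins, junctions, desmosomes and epithelial regulators had from 66.7% to 88.2% of theirs falling and 0 rising. Inflammatory mediators, immediate early genes, p53-activated genes and the EGF receptor family had 79.5%, 76.9%, 73.5% and 72.7% falling. Counts of 0 in a direction are by limma's adjusted p; at an unadjusted p under 0.05 the direction with 0 held 1 gene of ribosome biogenesis and 2 leukocyte markers, and again 0 in the other lists with such a count. The lists held 1252 distinct genes, of which 1180 (94.2%) had a probe set of their own.

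**Figure D2:**
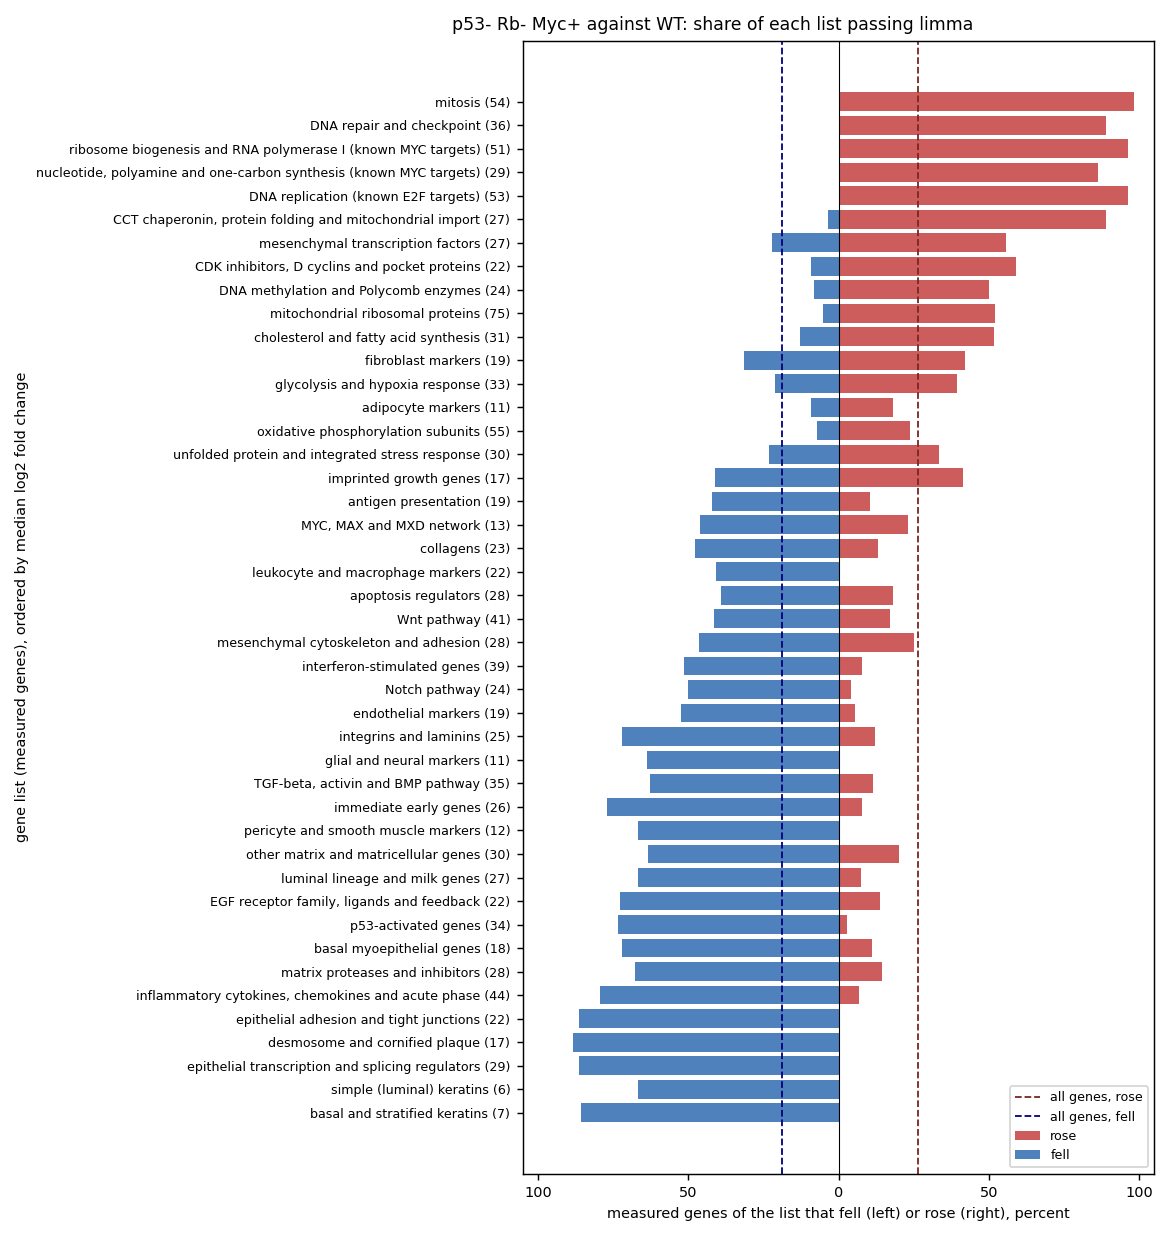
Share of the measured genes of each of 44 lists that rose (red, to the right) or fell (blue, to the left) in p53- Rb- Myc+ against WT arrays, in percent, ordered by the list's median log2 fold change, with the number of measured genes in brackets. Dashed lines mark the shares of all genes, 26.3% rising and 19% falling; the 5 epithelial lists at the bottom have no red bar.

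Keratins, the intermediate filament proteins that identify epithelial cells, fell in both families. Of 6 simple keratins, 4 fell and 0 rose, with a median log2 fold change of -3.46, and of 7 keratins of the basal layer and stratified epithelia, 6 fell and 0 rose, with a median of -5.71. Krt18 had intensities of 4881, 4766 and 4526 in WT and 22, 22.9 and 26.7 in p53- Rb- Myc+ arrays. Krt18, a luminal keratin, had the lowest fold change of all its list (log2 fold change -6.90 ± 0.17, adjusted p = 5.82e-18). Krt8 read 3069, 3094 and 3212 in the WT arrays and 26.8, 48.2 and 68.3 in the p53- Rb- Myc+ arrays. Krt8, the partner with which Krt18 forms filaments, fell as well (log2 fold change -5.68 ± 0.32, adjusted p = 1.36e-12), and the groups did not overlap. Krt5 read 2240, 2267 and 2426 in the WT arrays and 5.43, 12.2 and 12.1 in the p53- Rb- Myc+ arrays. The basal keratin Krt5 was near background in every p53- Rb- Myc+ array (log2 fold change -6.50 ± 0.18, adjusted p = 1.47e-17). Krt14, its filament partner, followed the same order of groups (log2 fold change -5.91 ± 0.20, adjusted p = 3.1e-16). Krt17 and Krt6a, keratins of basal and activated epithelial cells, had log2 fold changes of -6.36 ± 0.16 and -5.71 ± 0.18. Krt20, Krt23 and Krt15 did not pass, at log2 fold changes of -0.43, -0.07 and -0.31, and were low in both groups. The summed intensity of the simple keratins lay between 12250 and 12320 in WT arrays and between 598.1 and 666 in p53- Rb- Myc+ arrays. That of the basal keratins lay between 7454 and 7620, and between 107.4 and 123.6. In RNA of whole cultures, fewer cells of a type and less RNA per cell cannot be told apart, here and in every result that follows. The label of the p53- Rb- Myc+ arrays names mammary epithelial cells. The defining keratins of both epithelial layers were close to background in them, apart from Krt19 and, to a lesser extent, Krt8, which read up to 68.3.

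Krt19, a small keratin of luminal and progenitor cells, kept a clear level. Krt19 had intensities of 1168, 1220 and 1178 in WT and 486, 465 and 517 in p53- Rb- Myc+ arrays. It fell (log2 fold change -1.25 ± 0.15, adjusted p = 3.42e-07) but stayed well above its level in p53- Myc+ arrays, where its mean was 75.6 ± 8.65 (SD, n = 3). The difference between p53- Rb- Myc+ and p53- Myc+ arrays passed (log2 difference 2.47 ± 0.15, limma adjusted p = 9.78e-11), and 935 genes (4.69%) passed that comparison in either direction. Against p53- Rb- arrays, 7246 genes (36.3%) passed.

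**Figure D3:**
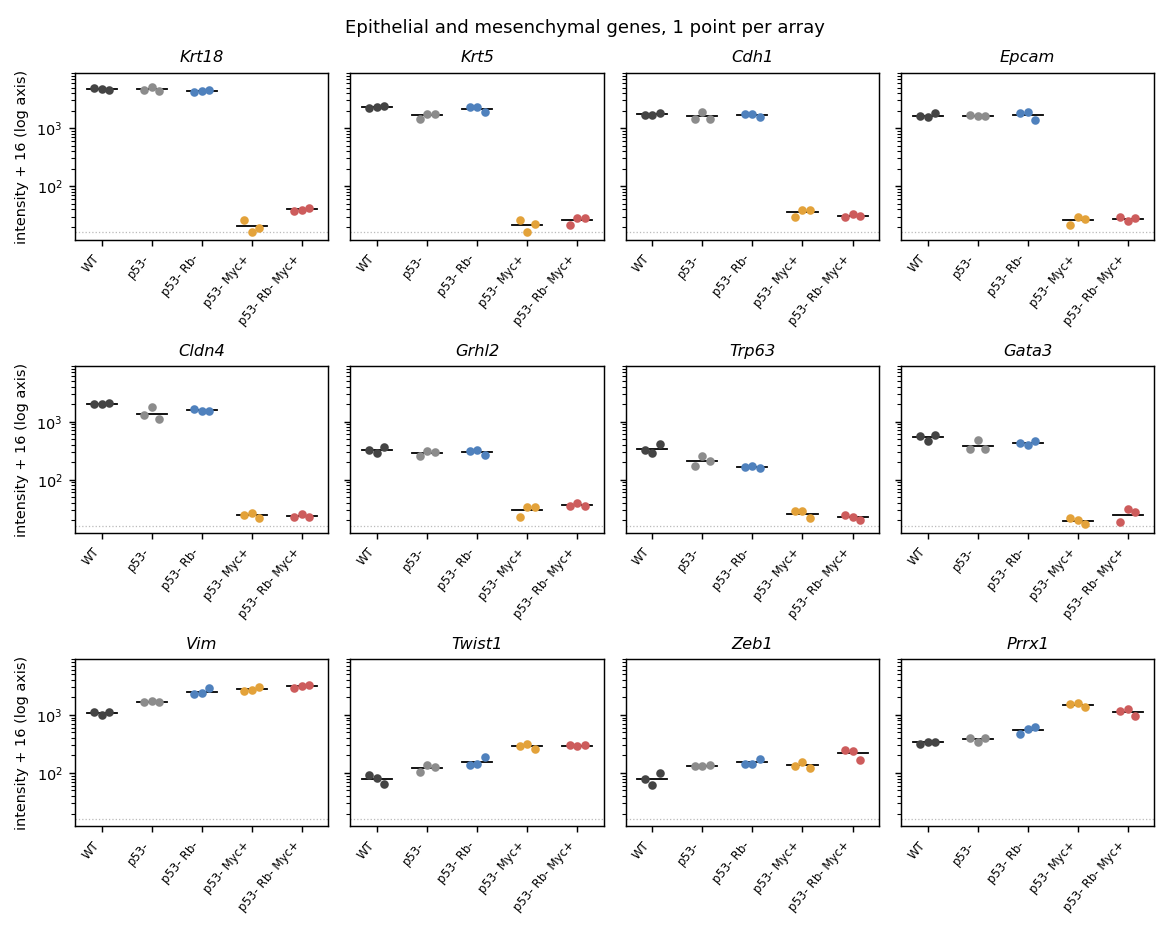
Intensity + 16 (log axis) of 8 epithelial genes and, in the bottom row, 4 mesenchymal genes in each of the 15 arrays, 3 per group; bars are means on the log scale and the dotted line is an intensity of 0. In the p53- Rb- Myc+ arrays all 8 epithelial genes sit near the dotted line, as they do in p53- Myc+ arrays, and Vim, Twist1, Zeb1 and Prrx1 lie above WT.

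Cell adhesion genes of epithelia fell together. Of 22 measured genes of adherens and tight junctions, 19 fell and 0 rose, with a median log2 fold change of -3.24, and the mean of 13 of them was under 16 in p53- Rb- Myc+ arrays. Cdh1 read 1652, 1686 and 1841 in the WT arrays and 13.8, 16.8 and 15.1 in the p53- Rb- Myc+ arrays. Cdh1, which encodes E-cadherin, the calcium-dependent adhesion protein of epithelia, fell (log2 fold change -5.80 ± 0.16, adjusted p = 1.52e-17). Epcam read 1584, 1520 and 1776 in the WT arrays and 14, 8.88 and 11.8 in the p53- Rb- Myc+ arrays. Epcam, a surface adhesion protein of most epithelia, did so too (log2 fold change -5.90 ± 0.17, adjusted p = 1.56e-17). Claudins form the strands of the tight junction. Cldn4 had intensities of 2018, 2001 and 2043 in WT and 6.68, 9.11 and 6.26 in p53- Rb- Myc+ arrays. Both groups lay far apart for this claudin (log2 fold change -6.45 ± 0.17, adjusted p = 6.91e-18). Cldn7 read 1612, 1335 and 1583 in the WT arrays and 10.8, 8.3 and 6.23 in the p53- Rb- Myc+ arrays. Cldn7 fell to a like extent (log2 fold change -5.96 ± 0.16, adjusted p = 9.1e-18), and Cldn3 and Cldn1 had log2 fold changes of -5.88 ± 0.23 and -5.55 ± 0.18. F11r, the junctional adhesion molecule A, fell less (log2 fold change -3.60 ± 0.16, adjusted p = 4.1e-14). F11r read 1026, 1147 and 1064 in the WT arrays and 71.7, 71.4 and 79.6 in the p53- Rb- Myc+ arrays. It was higher than in p53- Myc+ arrays, where its mean was 2.84 ± 4.28 (SD, n = 3) (log2 difference 2.28 ± 0.16, limma adjusted p = 1.62e-09). The genes of the list that did not pass were Cldn8, Cldn12 and Tjp1.

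Promoters of genes that fell are shown because the E-box CACCTG, which repressors of the Snail and Zeb families are known to bind, was searched for in them. In the 250 bases before each start site in RefSeq (mouse assembly GRCm38.p6), on both strands, CACCTG was in 13 of 22 promoters (59.1%) of the 15 junction genes that fell and had one, and in 7 of 18 (38.9%) of the 15 epithelial regulators that fell and had one. It was in 17.2% of all 32851 promoters. Promoters of 1 gene share sequence, the match is a description of letters and not a bound site, and no binding was measured. The promoters of Cldn4 (chr5:134946935-134947184, minus strand), Cldn7 (chr11:69965171-69965420, plus strand, 1 of 2 listed), Spint2 (chr7:29281978-29282227, minus strand) and Rab25 (chr3:88548280-88548529, minus strand) are those of the genes with the smallest p of both lists that hold the motif. They are printed 5′ to 3′ and end at the base before the start site; capitals mark CACCTG or its reverse complement.
Cldn4: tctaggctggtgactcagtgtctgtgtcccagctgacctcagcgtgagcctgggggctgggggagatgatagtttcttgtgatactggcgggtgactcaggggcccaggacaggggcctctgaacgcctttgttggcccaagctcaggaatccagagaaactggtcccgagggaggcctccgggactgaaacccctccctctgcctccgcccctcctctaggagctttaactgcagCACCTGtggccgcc
Cldn7: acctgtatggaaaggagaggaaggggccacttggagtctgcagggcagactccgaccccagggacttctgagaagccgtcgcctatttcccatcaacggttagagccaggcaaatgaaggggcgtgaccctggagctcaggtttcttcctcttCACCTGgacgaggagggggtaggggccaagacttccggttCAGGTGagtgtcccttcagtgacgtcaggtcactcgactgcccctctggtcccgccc
Spint2: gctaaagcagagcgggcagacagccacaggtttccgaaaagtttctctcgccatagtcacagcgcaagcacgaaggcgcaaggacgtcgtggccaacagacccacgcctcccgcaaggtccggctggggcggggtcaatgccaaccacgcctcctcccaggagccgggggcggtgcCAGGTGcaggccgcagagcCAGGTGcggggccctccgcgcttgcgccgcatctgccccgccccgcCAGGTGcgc
Rab25: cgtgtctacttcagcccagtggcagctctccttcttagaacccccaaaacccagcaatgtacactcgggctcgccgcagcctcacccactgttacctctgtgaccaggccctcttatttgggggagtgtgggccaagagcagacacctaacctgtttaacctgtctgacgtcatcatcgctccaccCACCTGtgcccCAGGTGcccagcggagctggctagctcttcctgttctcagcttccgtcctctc
The motif nearest the start site began 14 bases before it in Cldn4, 57 in Cldn7, 9 in Spint2 and 53 in Rab25.

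Desmosomes and hemidesmosomes, which fix keratin filaments to the membrane, lost most of their measured genes' signal. Of 17 genes, 15 fell and 0 rose, with a median log2 fold change of -3.32, and Pkp2 and Dst did not pass. Dsp had intensities of 731, 603 and 616 in WT and 16.2, 16.1 and 12.8 in p53- Rb- Myc+ arrays. Dsp, the desmoplakin that ties keratins to the plaque, fell (log2 fold change -4.42 ± 0.17, adjusted p = 2.07e-15). Perp, a desmosome protein that is also a p53 target, fell to near background (log2 fold change -4.79 ± 0.15, adjusted p = 6.65e-17). Itgb4 read 934, 812 and 912 in the WT arrays and 21.2, 17.2 and 24.2 in the p53- Rb- Myc+ arrays. Itgb4, the integrin of hemidesmosomes, was likewise separate between the groups (log2 fold change -4.61 ± 0.17, adjusted p = 1.51e-15). Lad1 and Pkp1, proteins of the basement membrane anchor and of the desmosomal plaque, had log2 fold changes of -4.92 ± 0.18 and -4.35 ± 0.18.

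Transcription factors and splicing regulators that set epithelial identity fell as well: 25 of 29 fell and 0 rose, with a median log2 fold change of -3.34. Grhl2 read 302, 274 and 343 in the WT arrays and 18.6, 23.1 and 19.3 in the p53- Rb- Myc+ arrays. Grhl2, a Grainyhead factor that activates Cdh1 and claudin genes, fell (log2 fold change -3.15 ± 0.17, adjusted p = 9.77e-13). Trp63 had intensities of 310.1, 272 and 392 in WT and 8.31, 6.79 and 4.17 in p53- Rb- Myc+ arrays. Trp63, the p53 relative that keeps the basal layer, fell to under 10 in each array (log2 fold change -3.91 ± 0.18, adjusted p = 4.76e-14). Gata3 read 547, 445 and 571 in the WT arrays and 2.23, 14.7 and 11.8 in the p53- Rb- Myc+ arrays. Gata3, the factor of the luminal lineage, also fell (log2 fold change -4.42 ± 0.20, adjusted p = 2.22e-14). Ehf and Elf3, ETS factors of epithelia, had log2 fold changes of -4.11 ± 0.21 and -2.92 ± 0.18. Esrp1 read 872, 777 and 928 in the WT arrays and 49, 35 and 36.4 in the p53- Rb- Myc+ arrays. Esrp1, a splicing regulator that gives epithelial forms of transcripts, fell (log2 fold change -3.97 ± 0.17, adjusted p = 1.08e-14). Spint2 had intensities of 1118, 1246 and 1056 in WT and 5.09, 10.2 and 5.9 in p53- Rb- Myc+ arrays. Spint2, a membrane inhibitor of serine proteases, and its target protease gene St14 had log2 fold changes of -5.65 ± 0.15 and -5.49 ± 0.19. Rab25, an epithelial GTPase of vesicle recycling, and Ap1m2, an adaptor for sorting to the basolateral membrane, had -4.34 ± 0.16 and -3.76 ± 0.15. Klf5, Spdef, Barx2 and Id4 did not pass.

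Genes of the luminal lineage and of milk were mixed in level but mostly fell, 18 of 27, with 2 rising and a median log2 fold change of -1.12. The 2 rising genes were 1 without WT replicate 1, WT replicate 3 or p53- Rb- Myc+ replicate 1. Wfdc2 read 3246, 3676 and 3222 in the WT arrays and 14.8, 17.5 and 27.2 in the p53- Rb- Myc+ arrays. Wfdc2, a secreted protease inhibitor of glandular epithelia, was among the 12 lowest fold changes of all (log2 fold change -6.58 ± 0.19, adjusted p = 1.56e-17). Csn3 read 1316, 1494 and 1081 in the WT arrays and 16.7, 29.5 and 21.8 in the p53- Rb- Myc+ arrays. Csn3, the milk protein kappa-casein, fell (log2 fold change -5.09 ± 0.19, adjusted p = 1.03e-15). Ltf, the milk protein lactoferrin, fell (log2 fold change -4.74 ± 0.19, adjusted p = 2.86e-15). Lcn2 had intensities of 6120, 5631 and 5034 in WT and 986, 792 and 1040 in p53- Rb- Myc+ arrays. Lcn2, the iron-carrier binding lipocalin of epithelia and neutrophils, fell yet remained high (log2 fold change -2.56 ± 0.15, adjusted p = 5.18e-12), against a mean of 158 ± 9.65 (SD, n = 3) in p53- Myc+ arrays (log2 difference 2.45 ± 0.15, limma adjusted p = 1.87e-10). Of 18 basal myoepithelial genes, 13 fell and 2 rose, with a median of -1.51. Cnn1 read 404, 357 and 359 in the WT arrays and 13.8, 11.1 and 6.73 in the p53- Rb- Myc+ arrays. Cnn1, a calponin of contractile cells, fell (log2 fold change -3.88 ± 0.21, adjusted p = 6.41e-13). Acta2 read 2119, 1905 and 1955 in the WT arrays and 1668, 1874 and 1879 in the p53- Rb- Myc+ arrays. Acta2, smooth muscle actin, was lower in each p53- Rb- Myc+ array by little and did not pass (log2 fold change -0.14 ± 0.18, adjusted p = 0.559). Tagln, the actin-binding protein transgelin, fell (log2 fold change -1.53 ± 0.22, adjusted p = 4.62e-06). Lamb3 and Lama3, chains of the laminin under basal cells, had log2 fold changes of -5.46 ± 0.21 and -4.74 ± 0.22.

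Mesenchymal transcription factors moved the other way in part: 15 of 27 rose and 6 fell, with a median log2 fold change of 0.73. Twist1 had intensities of 76.1, 64.4 and 49.5 in WT and 286, 269.9 and 283 in p53- Rb- Myc+ arrays. Twist1, a basic helix-loop-helix factor of mesenchyme, rose (log2 fold change 1.91 ± 0.17, adjusted p = 5.07e-09), and the groups did not overlap. Zeb1 read 63.5, 46.6 and 82.2 in the WT arrays and 233, 227 and 151 in the p53- Rb- Myc+ arrays. Zeb1, a repressor of Cdh1, rose (log2 fold change 1.46 ± 0.19, adjusted p = 1.06e-06), as did Zeb2 (log2 fold change 1.59 ± 0.18, adjusted p = 1.51e-07). Prrx1 read 300.3, 331 and 326 in the WT arrays and 1173, 1246 and 923 in the p53- Rb- Myc+ arrays. Prrx1, a homeobox factor of limb and connective tissue, rose (log2 fold change 1.74 ± 0.16, adjusted p = 1e-08). Snai2 had a smaller change (log2 fold change 0.73 ± 0.17, adjusted p = 0.00129), and Snai1 did not pass (log2 fold change 0.35 ± 0.21, adjusted p = 0.177). Meox2, a homeobox factor of somites and vessels, rose further (log2 fold change 3.43 ± 0.21, adjusted p = 5.55e-12). Ebf3 had intensities of 40.7, 34.3 and 33.4 in WT and 479, 474 and 483 in p53- Rb- Myc+ arrays. Ebf3, a helix-loop-helix factor, was close to even within each group (log2 fold change 3.25 ± 0.14, adjusted p = 2.36e-14). Osr1, a zinc finger factor of embryonic mesoderm, fell (log2 fold change -1.77 ± 0.18, adjusted p = 2.49e-08), and so did Heyl, a Notch target (log2 fold change -3.06 ± 0.31).

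Structural mesenchymal genes did not rise as a list. Of 28 genes of mesenchymal cytoskeleton and adhesion, 7 rose (25.0%) and 13 fell (46.4%), with a median of -0.28. Of all genes 26.3% rose and 19% fell, so the rising share was near that of all genes and the falling share above it. Vim read 1117, 971 and 1108 in the WT arrays and 2880, 3093 and 3275 in the p53- Rb- Myc+ arrays. Vim, the intermediate filament of mesenchymal cells, rose (log2 fold change 1.52 ± 0.15, adjusted p = 2.37e-08). Ddr2 read 64.7, 72.6 and 92.6 in the WT arrays and 641, 569 and 516 in the p53- Rb- Myc+ arrays. Ddr2, a receptor for fibrillar collagen, rose (log2 fold change 2.68 ± 0.18, adjusted p = 2.26e-11). Cdh2 had intensities of 319.6, 432 and 439 in WT and 531, 634 and 459 in p53- Rb- Myc+ arrays. Cdh2, N-cadherin, passed narrowly (log2 fold change 0.43 ± 0.18, adjusted p = 0.0475), and its adjusted p lay between 0.00765 and 0.222 over 16 other analysis settings, under 5 of which it did not pass. Nt5e, the surface nucleotidase CD73, fell (log2 fold change -4.03 ± 0.17, adjusted p = 1.19e-14), and Mcam and Eng, surface proteins of vessel and stromal cells, had log2 fold changes of -3.22 ± 0.18 and -2.83 ± 0.17. S100a4, a calcium-binding protein of fibroblasts and motile cells, was named after its values were seen and rose (log2 fold change 1.32 ± 0.17, adjusted p = 1.64e-06).

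Genes of the extracellular matrix fell more often than they rose. Of 23 collagens, 3 rose and 11 fell; of 30 other matrix genes, 6 rose and 19 fell; of 28 proteases and inhibitors, 4 rose and 19 fell; and of 25 integrins and laminins, 3 rose and 18 fell. Fn1 read 3792, 3727 and 3824 in the WT arrays and 698, 644 and 545 in the p53- Rb- Myc+ arrays. Fn1, fibronectin, which is often taken as a mesenchymal gene, fell (log2 fold change -2.56 ± 0.14, adjusted p = 1.61e-12). Col1a1 and Col1a2, the chains of type I collagen, did not pass (log2 fold changes 0.28 ± 0.16 and 0.27 ± 0.16), and Col3a1 rose (log2 fold change 1.00 ± 0.16, adjusted p = 1.65e-05). Thbs1, a matrix glycoprotein that activates TGF-beta, fell (log2 fold change -2.67 ± 0.16, adjusted p = 6.61e-12). Ogn read 10.3, 4.3 and 1.16 in the WT arrays and 351, 377 and 224 in the p53- Rb- Myc+ arrays. Ogn, a small leucine-rich proteoglycan, rose (log2 fold change 3.96 ± 0.21, adjusted p = 7.67e-13). Mmp9, a gelatinase, fell (log2 fold change -4.85 ± 0.16, adjusted p = 3.23e-16), and Mmp2, the other gelatinase, did not pass (log2 fold change -0.37 ± 0.17, adjusted p = 0.0812). Mmp14, the membrane-bound collagenase that activates Mmp2, fell (log2 fold change -2.32 ± 0.15, adjusted p = 1.23e-11). Plau had intensities of 1312, 1636 and 1588 in WT and 263, 236 and 294 in p53- Rb- Myc+ arrays. Plau, the urokinase activator of plasminogen, fell (log2 fold change -2.45 ± 0.25, adjusted p = 2.72e-08) and was above its p53- Myc+ mean of 108 ± 32.8 (SD, n = 3). Timp3, an inhibitor of matrix proteases, was among the 12 lowest fold changes (log2 fold change -6.33 ± 0.19, adjusted p = 6.65e-17). Itgb7, an integrin chain known from lymphocytes, rose (log2 fold change 3.03 ± 0.19, adjusted p = 6.6e-12).

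Markers of other cell types that a mammary culture can hold were read over whole lists. Of 19 fibroblast markers, 8 rose and 6 fell, and their summed intensity lay between 5346 and 5693 in WT and between 8629 and 8897 in p53- Rb- Myc+ arrays. Much of that gain was Vim, a member of the list that other mesenchymal cells make too, whose values are given above. Pdgfra read 86.6, 79.5 and 127 in the WT arrays and 248, 258 and 172 in the p53- Rb- Myc+ arrays. Pdgfra, the receptor that marks fibroblasts, rose (log2 fold change 1.09 ± 0.19, adjusted p = 6.77e-05) and was at 617 ± 98.9 (SD, n = 3) in p53- Myc+ arrays. Lum read 133, 118 and 109 in the WT arrays and 11.9, 8.96 and 15.4 in the p53- Rb- Myc+ arrays. Lum, the proteoglycan lumican, fell (log2 fold change -2.28 ± 0.17, adjusted p = 3.51e-10), as did Thy1, named after its values were seen (log2 fold change -1.97 ± 0.20, adjusted p = 2.35e-08). Cd34 had intensities of 62.4, 52 and 40.4 in WT and 316, 304 and 241 in p53- Rb- Myc+ arrays. Cd34, a surface protein of progenitor and stromal cells, rose (log2 fold change 2.17 ± 0.18, adjusted p = 1.18e-09). Of 19 endothelial markers, 1 rose and 10 fell, with sums from 1487 to 1678 and from 709.5 to 775.1, and the 1 rising gene did not pass without WT replicate 1 or without p53- Rb- Myc+ replicate 1 or 2. The defining endothelial markers Pecam1 and Cdh5 were under 13 in every p53- Rb- Myc+ array. Of 22 leukocyte and macrophage markers, 0 rose and 9 fell, with sums from 2662 to 3001 and from 697.8 to 739.2. Lyz2 read 316, 223 and 328 in the WT arrays and 3.22, 7.25 and 6.22 in the p53- Rb- Myc+ arrays. Lyz2, the lysozyme of macrophages, fell (log2 fold change -3.81 ± 0.20, adjusted p = 7.09e-13), while the pan-leukocyte gene Ptprc did not pass (log2 fold change 0.56 ± 0.23, adjusted p = 0.0501). Of 12 pericyte and smooth muscle markers, 0 rose and 8 fell, with sums from 4134 to 4629 and from 2487 to 2645. Glial and neural markers fell in 7 of 11 cases and rose in 0, with sums from 1667 to 1925 and from 711.4 to 858.2. Of 11 adipocyte markers, 2 rose (18.2%) and 1 fell (9.1%), both under the 26.3% and 19% of all genes. Their sums lay from 863.6 to 1078 and from 1150 to 1369. The falling shares of endothelial, leukocyte, pericyte and glial markers were 52.6%, 40.9%, 66.7% and 63.6%. Fibroblast markers rose at 42.1% and fell at 31.6%. Only 5 of 19 endothelial, 4 of 22 leukocyte and 3 of 11 adipocyte markers were at or above the median gene level. The 2 rising adipocyte markers were 1 without WT replicate 3 or p53- Rb- Myc+ replicate 2 or 3, and the 1 falling was 2 without WT replicate 2. A count of 0 rising became 1 for leukocyte markers without WT replicate 1 or 2 or p53- Rb- Myc+ replicate 2, and for pericyte markers without WT replicate 1. With array weights, 2 leukocyte markers rose. What part other cell types have in the changes of the epithelial, mesenchymal and immune lists was not tested.

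Genes of the cell cycle rose almost without exception. Of 53 genes of DNA replication known as E2F targets, 51 rose and 0 fell, with a median log2 fold change of 1.02, and 2 did not pass, Rrm2 and E2f1. Of 54 genes of mitosis, 53 rose and 0 fell, with a median of 1.29, and Ube2c did not pass. Ccne2 read 31.3, 23.6 and 19.7 in the WT arrays and 218, 199 and 159 in the p53- Rb- Myc+ arrays. Ccne2, the cyclin that drives entry into S phase, rose (log2 fold change 2.35 ± 0.20, adjusted p = 1.77e-09). Cdc7, the kinase that fires replication origins, rose (log2 fold change 2.20 ± 0.18, adjusted p = 7.46e-10). Mcm3 had intensities of 188, 133 and 149.8 in WT and 520.2, 536 and 475 in p53- Rb- Myc+ arrays. Mcm3, a subunit of the replicative helicase, rose (log2 fold change 1.62 ± 0.15, adjusted p = 1.24e-08), and the other subunits Mcm2 and Mcm5 had log2 fold changes of 1.00 ± 0.16 and 1.30 ± 0.16. Bub1b read 115, 62.5 and 116 in the WT arrays and 681, 650.2 and 658 in the p53- Rb- Myc+ arrays. Bub1b, a kinase of the spindle checkpoint, had the smallest p of the mitosis list (log2 fold change 2.62 ± 0.18, adjusted p = 3.65e-11). Ccna2, the cyclin of S and G2 phase, rose (log2 fold change 1.68 ± 0.15, adjusted p = 2.86e-09). Hmmr, a spindle-associated hyaluronan receptor, rose (log2 fold change 2.26 ± 0.20, adjusted p = 2.94e-09). In p53- Rb- Myc+ against p53- Myc+ arrays 1 gene of each of both lists passed (4.69% of all genes did). The medians of p53- Myc+ against the same WT arrays were 1.06 and 1.25. Those of p53- Rb- against WT were 0.59 and 0.84, and those of p53- against WT were 0.40 and 0.83.

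Promoters of replication genes are shown for the E2F motif. Its core forms TTTCCCGC or TTTGGCGC, on both strands, were in 8 of 52 promoters (15.4%) of the 43 replication genes that rose and had one, and in 1.3% of all promoters. They were also in 3 of 52 promoters (5.8%) of rising ribosome biogenesis genes. Of falling junction genes 1 of 22 promoters (4.5%) held them, and of falling epithelial regulators 0 of 18. The examples are Cdca7 (chr2:72475969-72476218, plus strand), a chromatin protein known as a target of both MYC and E2F, and Hells (chr19:38930740-38930989, plus strand), a DNA helicase that works with it. They had the smallest p among the holders of the motif, which is in capitals.
Cdca7: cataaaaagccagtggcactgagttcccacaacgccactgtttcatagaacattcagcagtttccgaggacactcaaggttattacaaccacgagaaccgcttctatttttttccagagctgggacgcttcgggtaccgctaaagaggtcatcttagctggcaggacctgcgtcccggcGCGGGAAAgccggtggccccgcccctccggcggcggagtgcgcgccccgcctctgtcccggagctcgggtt
Hells: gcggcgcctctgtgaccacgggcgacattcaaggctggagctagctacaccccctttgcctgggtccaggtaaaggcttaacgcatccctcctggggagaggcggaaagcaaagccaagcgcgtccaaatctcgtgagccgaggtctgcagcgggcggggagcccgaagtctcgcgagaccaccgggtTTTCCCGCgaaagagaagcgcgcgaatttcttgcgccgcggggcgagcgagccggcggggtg
The motif began 71 bases before the start site in Cdca7 and 62 in Hells. The MYC E-box CACGTG was in 2 of 52 promoters (3.8%) of the 44 genes of ribosome biogenesis that rose and had one, and in 6.0% of all promoters, so these letters were not more frequent in this window. CACGTG was in 5 of 52 promoters (9.6%) of rising replication genes, 3 of 22 (13.6%) of falling junction genes and 1 of 18 (5.6%) of falling epithelial regulators.

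**Figure D4:**
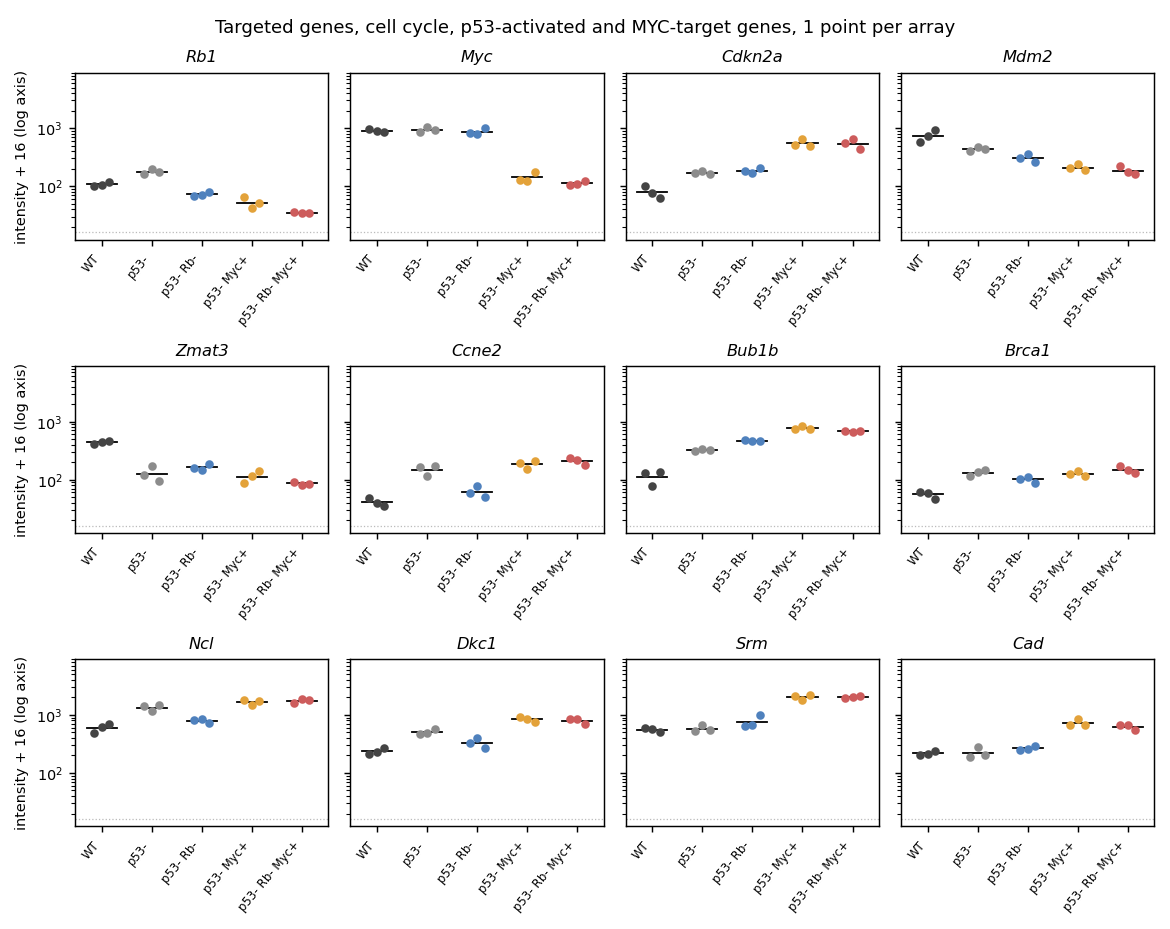
Intensity + 16 (log axis) of Rb1, Myc and 10 genes of the cell cycle, p53 response, DNA repair and growth in each of the 15 arrays, 3 per group; bars are means on the log scale. Rb1, Myc, Mdm2 and Zmat3 are lower in p53- Rb- Myc+ than in WT arrays and the other 8 genes are higher.

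Regulators between growth signals and the cell cycle were less uniform: of 22 CDK inhibitors, D cyclins, pocket proteins and E2F genes, 13 rose and 2 fell, with a median of 0.59. Cdkn2a read 83.4, 59.8 and 47 in the WT arrays and 541, 627 and 428 in the p53- Rb- Myc+ arrays. Cdkn2a, which encodes the inhibitors p16 and ARF, rose (log2 fold change 2.80 ± 0.19, adjusted p = 3.24e-11), and its means were 156 ± 11.1 (SD, n = 3) in p53-, 169 ± 18.3 (SD, n = 3) in p53- Rb- and 533 ± 92.9 (SD, n = 3) in p53- Myc+ arrays. Cdkn2c had intensities of 85.5, 69.2 and 87.7 in WT and 295, 316 and 400.2 in p53- Rb- Myc+ arrays. Cdkn2c, the inhibitor p18, rose (log2 fold change 1.86 ± 0.16, adjusted p = 3.72e-09) and was also above p53- Myc+ arrays (log2 difference 1.21 ± 0.16, limma adjusted p = 2.67e-05). Cdkn2b read 292, 299.8 and 235 in the WT arrays and 127, 158 and 129.5 in the p53- Rb- Myc+ arrays. Cdkn2b, the inhibitor p15, which TGF-beta induces, fell (log2 fold change -0.92 ± 0.22, adjusted p = 0.00131). Ccnd1 read 2436, 2388 and 2401 in the WT arrays and 715, 794 and 725 in the p53- Rb- Myc+ arrays. Ccnd1, the D cyclin that mitogens induce, fell (log2 fold change -1.67 ± 0.18, adjusted p = 6.28e-08). Cdk6, a kinase partner of D cyclins, rose (log2 fold change 1.46 ± 0.16, adjusted p = 1.71e-07), and Ccnd2 and Cdkn1c did not pass.

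Genes that p53 is known to activate mostly fell, 25 of 34, with 1 rising and a median log2 fold change of -1.48. Mdm2 had intensities of 559, 724 and 921 in WT and 203, 159 and 148 in p53- Rb- Myc+ arrays. Mdm2, the ubiquitin ligase that limits p53, fell (log2 fold change -2.00 ± 0.19, adjusted p = 8.9e-09). Ccng1, a cyclin induced by p53, fell (log2 fold change -2.20 ± 0.16, adjusted p = 1.46e-10). Zmat3 read 390.1, 421 and 449.7 in the WT arrays and 75.3, 66.1 and 68.7 in the p53- Rb- Myc+ arrays. Zmat3, an RNA-binding p53 target, fell (log2 fold change -2.34 ± 0.20, adjusted p = 2.41e-09). Igfbp3, which binds insulin-like growth factors, fell (log2 fold change -3.01 ± 0.18, adjusted p = 5.25e-12). Trp53i11 and Ak1 had log2 fold changes of -4.97 ± 0.21 and -4.08 ± 0.20. Sesn1, a stress protein of the same list, was the 1 gene that rose and was named after its values were seen. Sesn1 read 51.2, 66.5 and 62.2 in the WT arrays and 185, 246 and 250.2 in the p53- Rb- Myc+ arrays. Its groups did not overlap (log2 fold change 1.67 ± 0.17, adjusted p = 2.49e-08). In p53- arrays, which lack p53 alone, the list's median against WT was -0.52, and in p53- Rb- and p53- Myc+ arrays it was -0.27 and -1.24.

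Genes of DNA repair and checkpoints rose in 32 of 36 cases and fell in 0, with a median of 1.21. Brca1 had intensities of 46.1, 42.5 and 30.6 in WT and 152, 128 and 114 in p53- Rb- Myc+ arrays. Brca1, which acts in repair of double-strand breaks, rose (log2 fold change 1.41 ± 0.17, adjusted p = 4.25e-07). Chek1, the kinase of the replication checkpoint, rose (log2 fold change 1.83 ± 0.19, adjusted p = 6.3e-08). Parp1, an enzyme that marks breaks with poly(ADP-ribose), rose (log2 fold change 1.50 ± 0.15, adjusted p = 1.98e-08). Rad51ap1, a helper of strand exchange, and Tipin, a fork protein, had log2 fold changes of 1.69 ± 0.17 and 1.80 ± 0.18.

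Genes of ribosome production, which MYC is known to raise, rose in 49 of 51 cases and fell in 0, with a median of 1.20. Their summed intensity lay between 15440 and 17440 in WT and between 36540 and 37780 in p53- Rb- Myc+ arrays. Ncl read 478, 607 and 682 in the WT arrays and 1599, 1831 and 1821 in the p53- Rb- Myc+ arrays. Ncl, the nucleolar protein nucleolin, rose (log2 fold change 1.56 ± 0.17, adjusted p = 8.27e-08). Dkc1 read 197, 216 and 250.1 in the WT arrays and 818, 834 and 693 in the p53- Rb- Myc+ arrays. Dkc1, the pseudouridine synthase of ribosomal RNA, rose (log2 fold change 1.75 ± 0.17, adjusted p = 1.9e-08). Polr1a had intensities of 186, 198 and 261 in WT and 697, 679 and 642 in p53- Rb- Myc+ arrays. Polr1a, the largest subunit of RNA polymerase I, rose (log2 fold change 1.59 ± 0.16, adjusted p = 2.22e-08). Utp14a, a processing factor of the small subunit, rose (log2 fold change 1.76 ± 0.15, adjusted p = 2.92e-09). Against p53- Rb- arrays, 44 of the 51 passed (36.3% of all genes did), and against p53- Myc+ arrays 0 passed by limma's adjusted p (4.69% of all genes did) and 3 were at an unadjusted p under 0.05. Polr3d and Rrn3 did not pass, and the 0 falling became 1 without WT replicate 1 or p53- Rb- Myc+ replicate 3.

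Nucleotide, polyamine and one-carbon synthesis followed, with 25 of 29 genes rising, 0 falling and a median of 1.09. Srm read 581, 545 and 485 in the WT arrays and 1949, 2042 and 2112 in the p53- Rb- Myc+ arrays. Srm, spermidine synthase, rose (log2 fold change 1.89 ± 0.18, adjusted p = 8.16e-09). Cad read 192, 195 and 226 in the WT arrays and 661, 657 and 527 in the p53- Rb- Myc+ arrays. Cad, the first enzyme of pyrimidine synthesis, rose (log2 fold change 1.52 ± 0.17, adjusted p = 2.08e-07). Mthfd2 had intensities of 175, 136 and 229 in WT and 787, 784 and 796 in p53- Rb- Myc+ arrays. Mthfd2, the mitochondrial folate enzyme, rose (log2 fold change 2.07 ± 0.19, adjusted p = 9.34e-09). Prps1, which makes the ribose donor of nucleotides, rose (log2 fold change 1.85 ± 0.16, adjusted p = 2.75e-09). Odc1 read 1628, 1528 and 1688 in the WT arrays and 1548, 1449 and 1419 in the p53- Rb- Myc+ arrays. Odc1, ornithine decarboxylase, a well-known MYC target, overlapped between the groups and did not pass (log2 fold change -0.13 ± 0.16, adjusted p = 0.522).

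Protein folding and import into mitochondria rose in 24 of 27 cases, with 1 falling and a median of 0.78. Hspd1 read 956, 954 and 1085 in the WT arrays and 2505, 2557 and 2126 in the p53- Rb- Myc+ arrays. Hspd1, the mitochondrial chaperonin, rose (log2 fold change 1.25 ± 0.18, adjusted p = 4.13e-06), and Timm8a1 and Timm9, carriers of the import path, had log2 fold changes of 2.01 ± 0.17 and 1.85 ± 0.19. Of 75 mitochondrial ribosomal proteins, 39 rose and 4 fell, with a median of 0.50. Mrpl1 and Mrps30 had log2 fold changes of 1.25 ± 0.15 and 1.28 ± 0.17. Subunits of oxidative phosphorylation rose at near the share of all genes: 13 of 55 rose (23.6%, against 26.3%), with a median of 0.12. Their falling share was lower than that of all genes, with 4 falling (7.3%, against 19%). Ndufs1 had intensities of 110.2, 98 and 126 in WT and 318, 255 and 288 in p53- Rb- Myc+ arrays. Ndufs1, of complex I, rose (log2 fold change 1.25 ± 0.16, adjusted p = 1.39e-06), and Atp5e, of the ATP synthase, fell (log2 fold change -0.86 ± 0.16).

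Carbon metabolism was mixed. Of 33 genes of glycolysis and the hypoxia response, 13 rose (39.4%) and 7 fell (21.2%), against 26.3% and 19% of all genes. Slc16a3 read 790.4, 736 and 805 in the WT arrays and 29, 51 and 66.4 in the p53- Rb- Myc+ arrays. Slc16a3, the lactate exporter MCT4, fell (log2 fold change -3.66 ± 0.20, adjusted p = 1.4e-12). Adm, the hypoxia-induced peptide adrenomedullin, fell (log2 fold change -2.93 ± 0.15, adjusted p = 5.11e-13), and Vegfa fell by 1.15 ± 0.16 on the log2 scale. Egln3, a prolyl hydroxylase that marks HIF for breakdown, rose (log2 fold change 1.87 ± 0.19, adjusted p = 3.14e-08). Ldha, lactate dehydrogenase, rose by little (log2 fold change 0.45 ± 0.15). In cholesterol and fatty acid synthesis 16 of 31 genes rose and 4 fell, with a median of 0.40; the 4 were 2 without WT replicate 1 or p53- Rb- Myc+ replicate 2. Elovl6 read 99.3, 107 and 136 in the WT arrays and 838, 888 and 589.8 in the p53- Rb- Myc+ arrays. Elovl6, a fatty acid elongase, rose most clearly (log2 fold change 2.59 ± 0.21, adjusted p = 9.16e-10), and Fasn, fatty acid synthase, did not pass (log2 fold change 0.36).

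Inflammatory mediators were among the lists with the most falling genes: 35 of 44 fell and 3 rose, with a median of -2.17. Ptgs2 had intensities of 2136, 2409 and 2240 in WT and 173, 149 and 126 in p53- Rb- Myc+ arrays. Ptgs2, the inducible cyclooxygenase, fell (log2 fold change -3.79 ± 0.15, adjusted p = 4.57e-15), and so did Ptges, which makes prostaglandin E2 from its product (log2 fold change -4.66 ± 0.17, adjusted p = 1.32e-15). Lif read 1287, 1177 and 1236 in the WT arrays and 23.8, 22 and 17 in the p53- Rb- Myc+ arrays. Lif, a cytokine of the interleukin-6 family, fell (log2 fold change -5.08 ± 0.18, adjusted p = 5.11e-16). Tnf read 237, 283 and 300.3 in the WT arrays and 7.81, 12 and 4.41 in the p53- Rb- Myc+ arrays. Tnf, tumour necrosis factor, fell (log2 fold change -3.59 ± 0.18, adjusted p = 2.04e-13). Cxcl1, a neutrophil attractant, fell less (log2 fold change -1.43 ± 0.19, adjusted p = 1.32e-06). S100a8 had intensities of 3088, 2895 and 2700 in WT and 13.6, 24.1 and 17.6 in p53- Rb- Myc+ arrays. S100a8, a chain of the calprotectin complex of neutrophils and stressed epithelia, was among the 12 lowest fold changes (log2 fold change -6.41 ± 0.24, adjusted p = 1.61e-15). Vcam1 read 37, 34.6 and 82.6 in the WT arrays and 828, 775 and 781 in the p53- Rb- Myc+ arrays. Vcam1, an adhesion protein for leukocytes, rose instead (log2 fold change 3.66 ± 0.21, adjusted p = 1.52e-12), as did Il33, an alarm cytokine described further on. Saa3, an acute phase protein, did not pass (log2 fold change 0.55 ± 0.25, adjusted p = 0.0766).

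Interferon-stimulated genes fell in 20 of 39 cases and rose in 3, with a median of -0.41. Zbp1, a sensor of unusual nucleic acids, fell (log2 fold change -3.25 ± 0.22, adjusted p = 4.01e-11). Ddx58, which encodes the RNA sensor RIG-I, fell (log2 fold change -2.12 ± 0.20, adjusted p = 9.91e-09), and Ifit1 did not pass. Of 19 genes of antigen presentation, 8 fell and 2 rose. B2m, the light chain of class I molecules, fell (log2 fold change -0.79 ± 0.15, adjusted p = 0.000166), and the immunoproteasome subunit Psmb8 fell further (log2 fold change -3.00 ± 0.25) while Psmb10 rose (log2 fold change 1.00 ± 0.15).

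The EGF receptor family, its ligands and its feedback genes fell in 16 of 22 cases and rose in 3, with a median of -1.40. Egfr read 558, 603 and 632 in the WT arrays and 165, 202 and 151 in the p53- Rb- Myc+ arrays. Egfr, the receptor for the EGF in the medium, fell (log2 fold change -1.71 ± 0.17, adjusted p = 2.91e-08). Hbegf had intensities of 466, 552 and 591 in WT and 117, 98 and 108 in p53- Rb- Myc+ arrays. Hbegf, a ligand of it, fell (log2 fold change -2.15 ± 0.17, adjusted p = 6.26e-10). Dusp6, a phosphatase that ERK signalling induces, fell (log2 fold change -1.56 ± 0.19, adjusted p = 7.11e-07). The 3 that rose, named after their values were seen, were the ligand gene Nrg4 and the feedback genes Spry1 and Spry2. Immediate early genes, which growth factors switch on within minutes, fell in 20 of 26 cases and rose in 2, with a median of -0.85. The 20 include Myc, whose reading goes against the label. Fos read 299.9, 265 and 245 in the WT arrays and 12.9, 12.1 and 16.3 in the p53- Rb- Myc+ arrays. Fos, a subunit of the AP-1 factor, fell (log2 fold change -3.26 ± 0.18, adjusted p = 8.81e-13), Jun fell less (log2 fold change -0.55 ± 0.16), and Fosl1 rose (log2 fold change 0.73 ± 0.18). The other gene of that list that rose, Klf2, was named after its values were seen (log2 fold change 1.08 ± 0.19, adjusted p = 8.1e-05).

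Other signalling lists also held more falling than rising genes. Of 35 genes of the TGF-beta, activin and BMP pathway, 22 fell and 4 rose, with a median of -0.84. Inhba read 881, 1111 and 1439 in the WT arrays and 39.3, 53.3 and 53.8 in the p53- Rb- Myc+ arrays. Inhba, the activin A subunit, fell (log2 fold change -4.14 ± 0.21, adjusted p = 2.92e-13). Fst had intensities of 1344, 1422 and 1457 in WT and 36.4, 48.3 and 39.5 in p53- Rb- Myc+ arrays. Fst, the follistatin that binds activin, fell too (log2 fold change -4.64 ± 0.17, adjusted p = 9.39e-16). Tgfb1, the ligand, fell (log2 fold change -2.33 ± 0.16, adjusted p = 8.92e-11). Id1 read 301, 250.5 and 243 in the WT arrays and 284, 334 and 402 in the p53- Rb- Myc+ arrays. Id1, a BMP target, did not pass against WT (log2 fold change 0.33 ± 0.16, adjusted p = 0.0949) and was above p53- Myc+ arrays, where its mean was 95.4 ± 7.76 (SD, n = 3) (log2 difference 1.66 ± 0.16, limma adjusted p = 1.66e-07). Tgfbr3, a co-receptor, rose and was named after its values were seen (log2 fold change 1.92 ± 0.20, adjusted p = 6.76e-08). In the Wnt pathway 17 of 41 genes fell and 7 rose. Wnt7b, a ligand of epithelia, fell (log2 fold change -4.45 ± 0.16, adjusted p = 1.05e-15). Sfrp2 read 109, 75.8 and 106 in the WT arrays and 407, 377 and 458 in the p53- Rb- Myc+ arrays. Sfrp2, a secreted Wnt modulator, rose (log2 fold change 1.94 ± 0.20, adjusted p = 5.04e-08), as did Rspo3, a Wnt amplifier named after its values were seen (log2 fold change 2.37 ± 0.17, adjusted p = 1.1e-10). The 7 rising Wnt genes were 3 without p53- Rb- Myc+ replicate 1 or 2 and 4 without WT replicate 2. In the Notch pathway 12 of 24 fell and 1 rose. Notch1 had intensities of 287, 267 and 321 in WT and 35, 37.1 and 31.1 in p53- Rb- Myc+ arrays. Notch1 fell (log2 fold change -2.61 ± 0.16, adjusted p = 6.63e-12), as did the ligand gene Jag1 (log2 fold change -3.03 ± 0.19), and Jag2, named after its values were seen, was the 1 that rose (log2 fold change 1.14 ± 0.17, adjusted p = 9.15e-06).

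The remaining lists are given by their counts. Of 13 genes of the MYC and MAX network, 3 rose (23.1%) and 6 fell (46.2%), against 26.3% and 19% of all genes. Among the 6 were Mxd4 and Mxd1, repressors that compete with MYC for MAX (log2 fold changes -1.52 ± 0.16 and -1.27 ± 0.18). The 6 include Myc itself, whose reading goes against the label. The 3 rising genes of that network were 1 without WT replicate 1. Of 28 apoptosis regulators, 5 rose (17.9%) and 11 fell (39.3%), against 26.3% and 19% of all genes. The 5 rising were 3 without WT replicate 1. Bcl2l1, which encodes the survival protein BCL-XL, fell (log2 fold change -1.41 ± 0.17, adjusted p = 6.31e-07), and Casp8 fell (log2 fold change -1.27 ± 0.15). Of 30 genes of the unfolded protein and integrated stress response, 10 rose (33.3%) and 7 fell (23.3%), with a median of 0.04. These were near the shares of all genes, 26.3% and 19%. The 7 falling genes were 4 without WT replicate 3. Asns, asparagine synthetase, rose (log2 fold change 1.12 ± 0.15, adjusted p = 1.61e-06), and Xbp1, a factor of that response, fell (log2 fold change -0.97 ± 0.15). Of 24 DNA methylation and Polycomb enzymes, 12 rose and 2 fell, with a median of 0.54. Dnmt1, the maintenance methyltransferase, rose (log2 fold change 1.26 ± 0.16, adjusted p = 7.89e-07). Of 17 imprinted growth genes, 7 rose and 7 fell. Nnat read 948, 998 and 975 in the WT arrays and 34, 26.3 and 23.9 in the p53- Rb- Myc+ arrays. Nnat, neuronatin, fell (log2 fold change -4.50 ± 0.28, adjusted p = 1.12e-11). Grb10 read 266, 260.3 and 246 in the WT arrays and 502, 504 and 407 in the p53- Rb- Myc+ arrays. Grb10, a brake on growth factor receptors, rose (log2 fold change 0.83 ± 0.16, adjusted p = 0.000243) against a mean of 45 ± 12.3 (SD, n = 3) in p53- Myc+ arrays.

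Of the genes at or above the median level with groups that did not overlap, the highest fold change was that of an imprinted gene. Peg10 had intensities of 82.1, 28 and 56 in WT and 1219, 1301 and 1013 in p53- Rb- Myc+ arrays. Peg10, a retrotransposon-derived gene of placenta, rose (log2 fold change 4.13 ± 0.24, adjusted p = 3.77e-12) and was at 1319 ± 296 (SD, n = 3) in p53- Myc+ arrays. Aldh1a1 read 15.5, 11.5 and 17.1 in the WT arrays and 409, 468 and 418 in the p53- Rb- Myc+ arrays. Aldh1a1, a retinaldehyde dehydrogenase, rose from near background (log2 fold change 3.87 ± 0.17, adjusted p = 1.7e-14). Gata6, a factor of endoderm and heart, rose (log2 fold change 3.07 ± 0.23, adjusted p = 2.57e-10). Pde3b, a phosphodiesterase, and Rcor2, a corepressor subunit, had log2 fold changes of 2.90 ± 0.17 and 2.85 ± 0.18. The lowest fold change was that of a secreted chaperone. Clu read 2842, 2545 and 2623 in the WT arrays and 7.34, 10.5 and 0.776 in the p53- Rb- Myc+ arrays. Clu, clusterin, fell to near background (log2 fold change -6.94 ± 0.18, adjusted p = 6.55e-18). Wfdc18, a secreted mammary protein, and Serinc2, a membrane protein of epithelia, had log2 fold changes of -6.37 ± 0.29 and -6.00 ± 0.17.

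At a small number of genes the p53- Rb- Myc+ arrays lay beyond each of the 4 other groups. These were 68 genes above (0.341%) and 72 below (0.361%) all others, by the largest of the 4 p-values, adjusted over all genes. Efemp1 had intensities of 79.6, 71.3 and 73.1 in WT and 1147, 1021 and 879 in p53- Rb- Myc+ arrays. Efemp1, the matrix protein fibulin-3, was near background in p53- Myc+ arrays (8.61 ± 7.69 (SD, n = 3)), against which its log2 difference was 5.44 ± 0.20 (limma adjusted p = 4.68e-14). Prg4 read 64.9, 35.4 and 59.9 in the WT arrays and 853, 895 and 1031 in the p53- Rb- Myc+ arrays. Prg4, the lubricating proteoglycan of joints and mesothelium, had means of 31 ± 4.87 (SD, n = 3) in p53- Rb- and 126 ± 19.1 (SD, n = 3) in p53- Myc+ arrays, and rose (log2 fold change 3.79 ± 0.19, adjusted p = 1.75e-13). Ifitm1 read 20.4, 43.9 and 51.6 in the WT arrays and 779, 937 and 810 in the p53- Rb- Myc+ arrays. Ifitm1, an interferon-induced membrane protein, rose (log2 fold change 4.02 ± 0.19, adjusted p = 9.14e-14) against the direction of most of its list, and its log2 difference from p53- Myc+ arrays was 2.87 ± 0.19. Wt1 had intensities of 40.9, 31 and 25.5 in WT and 516, 509 and 445 in p53- Rb- Myc+ arrays. Wt1, a zinc finger factor of kidney and mesothelium, rose (log2 fold change 3.39 ± 0.20, adjusted p = 4.95e-12). Stra6 read 134, 100.5 and 110.4 in the WT arrays and 923, 909.9 and 899 in the p53- Rb- Myc+ arrays. Stra6, the cell surface receptor for the retinol carrier, rose (log2 fold change 2.83 ± 0.20, adjusted p = 7.93e-11). Il33 read 28.6, 22.6 and 33 in the WT arrays and 341, 269.6 and 249 in the p53- Rb- Myc+ arrays. Il33 rose (log2 fold change 2.77 ± 0.20, adjusted p = 7.98e-11).

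The lower side is described by the 6 genes that the naming rule gave. Slc43a3 had intensities of 896, 1078 and 1154 in WT and 11, 21.9 and 17.4 in p53- Rb- Myc+ arrays. Slc43a3, a nucleobase transporter, had means of 568 ± 15.9 (SD, n = 3), 1157 ± 76.3 (SD, n = 3) and 623 ± 61.5 (SD, n = 3) in p53-, p53- Rb- and p53- Myc+ arrays, and fell against WT (log2 fold change -5.02 ± 0.16, adjusted p = 1.62e-16). Mmp3 read 629, 585 and 701 in the WT arrays and 37, 24.6 and 30.3 in the p53- Rb- Myc+ arrays. Mmp3, the protease stromelysin 1, fell (log2 fold change -3.81 ± 0.18, adjusted p = 4.91e-14). Tnc read 1256, 1010 and 1279 in the WT arrays and 33.9, 40.7 and 44 in the p53- Rb- Myc+ arrays. Tnc, the matrix protein tenascin C, fell (log2 fold change -4.43 ± 0.16, adjusted p = 6.23e-16), with a mean of 220 ± 17.9 (SD, n = 3) in p53- Myc+ arrays. Crabp1 had intensities of 1177, 1304 and 1388 in WT and 269, 173 and 248 in p53- Rb- Myc+ arrays. Crabp1, which binds retinoic acid in the cell, fell (log2 fold change -2.43 ± 0.18, adjusted p = 2.72e-10). Fbxo17, a substrate adaptor of ubiquitin ligases, fell (log2 fold change -3.08 ± 0.17, adjusted p = 1.72e-12). Lrrc8c, a subunit of volume-regulated anion channels, fell (log2 fold change -3.76 ± 0.18, adjusted p = 1.01e-13). The count above all others moved with the setting, from 37 among the genes at or above the median level to 106 with array weights.

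**Figure D5:**
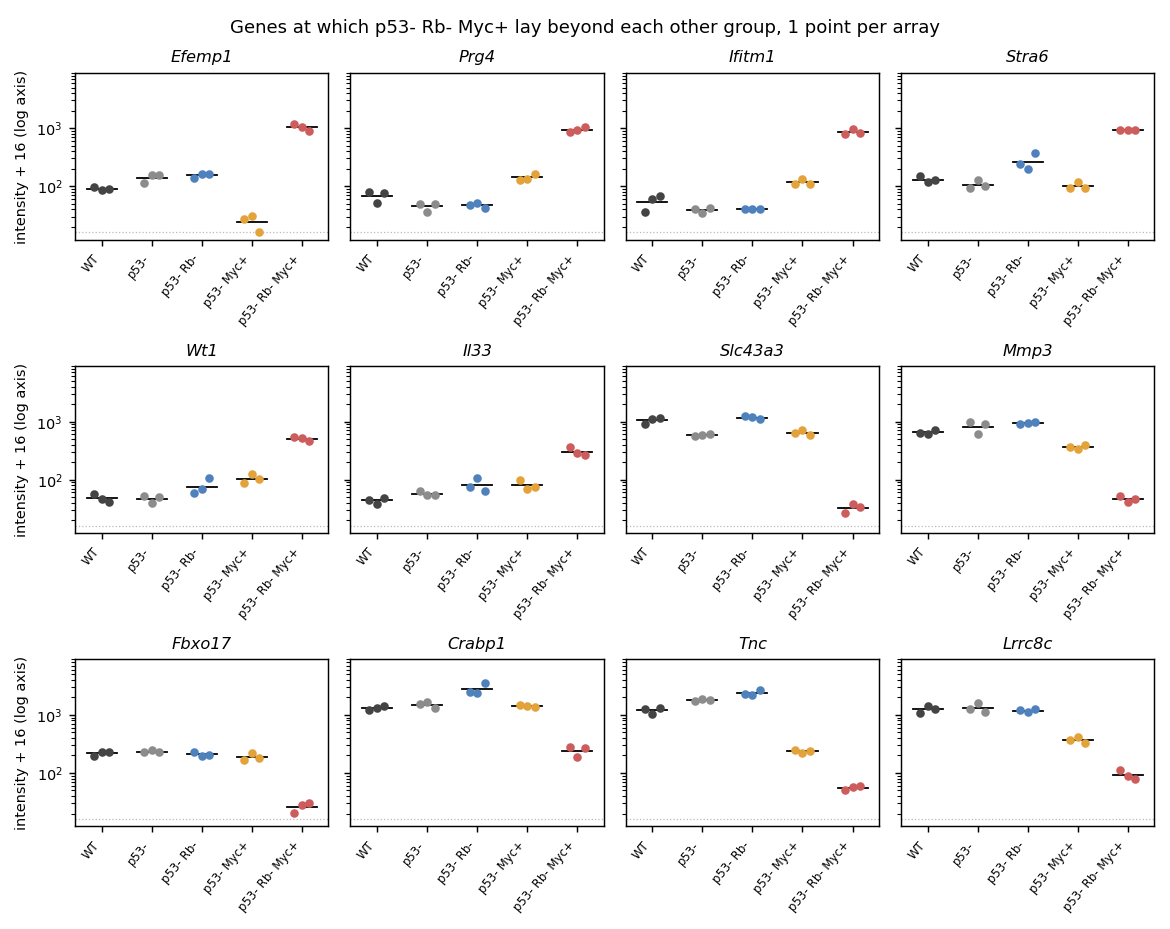
Intensity + 16 (log axis) in each of the 15 arrays of 6 genes at which p53- Rb- Myc+ arrays lay above each other group and, from Slc43a3 on, 6 at which they lay below; bars are means on the log scale, 3 arrays per group. For Efemp1 the p53- Myc+ arrays are the lowest, and Fbxo17 is near even in the 4 other groups.

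The medians of lists against the same WT arrays are set side by side, since these comparisons share their controls. The junction list had medians of -3.24 in p53- Rb- Myc+, -3.47 in p53- Myc+, -0.15 in p53- Rb- and -0.18 in p53- arrays, and the epithelial regulators -3.34, -3.43, -0.29 and -0.39. Ribosome biogenesis had 1.20, 1.34, 0.38 and 0.45, and p53-activated genes -1.48, -1.24, -0.27 and -0.52. Against p53- Myc+ arrays directly, 2 of 22 junction genes and 2 of 29 regulators passed (4.69% of all genes did), as did 3 of 6 simple keratins, 1 of 7 basal keratins and 4 of 17 desmosome genes. Outside the epithelial lists, the lists with most genes passing by share were other matrix genes (16 of 30), imprinted genes (7 of 17), collagens (9 of 23), fibroblast markers (7 of 19), integrins and laminins (9 of 25) and inflammatory mediators (13 of 44). Against p53- Rb- arrays, 19 of 22 junction genes and 24 of 29 regulators passed (36.3% of all genes did).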

How the data were processed

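RNA of each sample was read on 1 Affymetrix array. Probe set intensities were deposited by the authors, who ran Affymetrix Expression Console 1.1 according to the submitters' processing notes. How probes were summarised, and whether arrays were normalized to each other, is not given in the sources used here. Values ran from 4.11e-05 to 8348.1, a linear scale, and were used as log2(intensity + 16). The number of arrays limits the precision.

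Of 35556 probe sets, 21789 had 1 gene symbol in the platform annotation, 1621 had several and 12146 were not listed. Each of 19938 genes was read from whichever of its probe sets was brightest on average over the 15 arrays; 999 genes had several. Symbols of 21698 probe sets were checked against a mouse gene table of GRCm38.p6, and 0 changed. Promoter sequences are from RefSeq.

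A single model of 5 group means was fitted to the 15 arrays (limma 3.58.1, lmFit and eBayes, under R 4.3.3). The model had 10 residual degrees of freedom and 11.78 from the prior. It was first run on simulated data with independent noise in every array, which cannot show effects shared by arrays of a group. Tests were 2-sided, with Benjamini-Hochberg adjustment over all genes. To lie beyond each other group, a gene needed all 4 differences of 1 sign, and the largest of the 4 p-values was adjusted. Replicate numbers were not taken to pair arrays, since the labels do not say that a number marks a shared animal or day. Same-number WT and p53- Rb- Myc+ arrays deviated from their group means with r = -0.055, 0.109 and -0.036. Replicate 3 had the lowest median intensity of its group in WT (41.28), p53- Rb- (43), p53- Myc+ (41.86) and p53- Rb- Myc+ (45.51) arrays, but not in p53- arrays.

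Genes were named by a rule: Rb1 and Myc, the 12 highest and 12 lowest fold changes among genes that passed, were no dimmer than the median gene and had no overlap between the groups, set anchor genes and for each list up to 4 further members of smallest p, and the 6 highest and 6 lowest genes beyond each other group; others are said to be later choices. The comparison, its gene lists and the rule were chosen with earlier results of these data known. There were 16 alternatives, covering the amount added before log2, low genes, scaling, probe sets, arrays in the fit, array weights, a mean trend, the replicate block and leaving out each array.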

Additional observations from a re-analysis of the deposited data

Results flagged for a closer look

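Signal also appeared in probe sets that the comparison did not use because they name no single gene. Of 12146 probe sets not listed in the annotation, 2029 rose and 622 fell in p53- Rb- Myc+ against WT arrays by limma's adjusted p (21.8%). Of 1621 probe sets with several gene symbols, 383 rose and 156 fell (33.3%). Both shares were adjusted over all 35556 probe sets. The 45.4% of genes was adjusted over 19938 genes, each read from its brightest probe set. The shares are therefore not like for like with it.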

How the results depend on the processing

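Of 339 named genes, 310 passed. Of these, 262 were tested under all 16 alternatives and 255 passed in each, and 48 were too dim for the filter at the median level and were tested under the other 15, of which 43 passed in each; 0 of the 310 changed sign. Of the 29 that did not pass, 13 passed under 1 or more. The 34 list counts of at least 10 stayed within 1.5 times under 15 alternatives. With that filter, which tests fewer genes, 31 did, and falling interferon-stimulated genes went from 20 to 7, Notch genes from 12 to 6 and endothelial markers from 10 to 3. With a replicate block, 5340 genes rose and 3839 fell, against 5251 and 3796 without it, and the replicate block changed the call of 1 named gene, Ptprc, which passed, and moved the rising leukocyte markers from 0 to 1. Leaving out 1 array gave 4359 to 5028 rising and 3423 to 3791 falling genes, and 51 to 73 above and 50 to 72 below each other group. Of these counts, the 68 genes above each other group moved most, to 42 with 1 added before log2, 37 among genes at or above the median level and 106 with array weights; the stricter gene filter tested fewer genes, and the other causes were not tested.

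Signs turned only at named genes that did not pass. Leaving out 1 array gave log2 fold changes of -0.25 to 0.05 for Krt23, -0.08 to 0.01 for Cdkn1c, -0.12 to 0.07 for Ccnd2, -0.38 to 0.01 for Axin2, -0.22 to 0.19 for Bcl2 and -0.10 to 0.14 for Ddit3. Ccnd2 was at 0.06 with array weights, Bcl2 at 0.01 with centred arrays, 0.02 after quantile normalization and 0.05 with array weights, and Tet1 at 0.36 over the mean of its probe sets. Low intensities limit the fold changes of genes near background, which the 16 added makes smaller.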

Other observations

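Of 999 genes with several probe sets, 299 had probe sets that differed in their call by limma (adjusted over all probe sets), and in 15 of these probe sets passed in opposite directions. Some examples follow, chosen after their values were seen. Mrpl47, a mitochondrial ribosomal protein, rose by the probe set used (log2 fold change 1.36 ± 0.20), while its other probe set was at 0.03 (limma adjusted p = 0.933). For Tet1, which oxidises methylated cytosine, the probe set used was at -0.37 and did not pass, and its other probe sets were at 0.65 and 0.78 (limma adjusted p = 0.00752 and 0.00235). Ifitm1 was at 3.74 by its other probe set.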
